A study of Mus musculus with 1824 samples.

Results

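The transcription factors that open the blood and endothelial programme in the mouse embryo were followed in single cells at embryonic days 7.5 and 8.5 (E7.5 and E8.5). Members were chosen by name, as the rows of the count table whose Ensembl identifiers map to *Etv2*, *Tal1*, *Lmo2*, *Lyl1*, *Fli1*, *Erg*, *Ets1* and *Hhex*. All 8 were found among the 55487 genes, and each had reads. Cells came from chimaeric embryos in which *Tet* triple-knockout embryonic stem cells carrying an H2B-tdTomato reporter had contributed to host tissue. The study sorted single cells, some by antibodies to KDR and CD41 (the product of *Itga2b*), to follow blood formation without the TET enzymes. The methods name C57BL/6J host blastocysts, whereas the label of every cell gives the strain as CD1 and its tissue as E7.5 or E8.5 embryo. The labels of single cells give neither genotype nor sort gate, so knockout and host cells could not be separated here, and levels describe the sorted wells rather than whole embryos.

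Of 1824 wells on 19 plates, 1649 cells with at least 100000 reads were used, 57.97% of them from E7.5 and 42.03% from E8.5. The 11 E7.5 plates were 4 plates of named embryos (1, 2, 4 and 5), 1 chimera plate and 6 plates without an embryo name whose titles carry an L number (called lane plates here). None of the 8 plates of the later stage names an animal, so that stage is 1 sample and the stages were not tested against each other. Kept cells held a median of 670090 reads, and the plate medians ranged from 224956 to 1699478 reads. E7.5 lane plate 1 stood apart from the other E7.5 plates, with 5.15% of its reads on globin genes against at most 0.371% elsewhere at that stage. No pair of kept cells held identical counts. Read counts were divided by the total of the cell or pool and given as counts per 1e+06 reads (CPM). Intervals are 95% and cover counting error only, because amplified reads are not independent molecules.

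Blood and endothelium arise together from mesoderm that carries the VEGF receptor KDR. ETV2, an ETS-family factor, acts early and for a short time in this mesoderm and is required for both lineages. TAL1 and its relative LYL1 are basic helix-loop-helix factors that bind DNA in a complex with the bridging protein LMO2 and GATA factors, and TAL1 and LMO2 are required for the first blood cells. FLI1, ERG and ETS1 are further ETS factors that maintain endothelial genes, and HHEX is a homeobox factor used in anterior endoderm as well as in blood and endothelial precursors.

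The stretches of 250 bases before the annotated start are shown for 4 members that are high in different marker groups below, so that the ETS, E-box and GATA letters near each start can be read beside the levels. They were taken from RefSeq on GRCm38.p6, which gave an entry for 5 of the 8 members. *Etv2* (chr7:30635853-30636102, minus strand), the first start of *Tal1* (chr4:115056176-115056425, plus strand), *Lyl1* (chr8:84701207-84701456, plus strand) and *Hhex* (chr19:37434591-37434840, plus strand) are printed 5′ to 3′ in the direction of the gene. Capitals mark the ETS core AGGAA or CGGAA, the E-box CANNTG and the GATA words AGATAA or TGATAA on either strand, with overlapping matches merged.
Etv2: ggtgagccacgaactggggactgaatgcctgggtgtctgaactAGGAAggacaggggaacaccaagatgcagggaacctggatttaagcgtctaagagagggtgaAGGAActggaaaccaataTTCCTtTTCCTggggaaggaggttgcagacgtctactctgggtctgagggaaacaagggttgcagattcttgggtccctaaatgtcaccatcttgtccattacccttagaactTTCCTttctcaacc
Tal1: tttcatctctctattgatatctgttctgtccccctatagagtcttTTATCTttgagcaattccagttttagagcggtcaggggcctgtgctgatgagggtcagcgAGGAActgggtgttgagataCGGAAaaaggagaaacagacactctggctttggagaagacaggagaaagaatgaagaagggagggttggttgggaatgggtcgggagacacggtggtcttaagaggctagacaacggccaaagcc
Lyl1: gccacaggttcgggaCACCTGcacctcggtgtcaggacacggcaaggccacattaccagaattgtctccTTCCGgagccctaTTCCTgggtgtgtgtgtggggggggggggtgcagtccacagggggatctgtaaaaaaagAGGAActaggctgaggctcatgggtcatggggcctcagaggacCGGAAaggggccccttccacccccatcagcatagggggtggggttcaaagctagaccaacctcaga
Hhex: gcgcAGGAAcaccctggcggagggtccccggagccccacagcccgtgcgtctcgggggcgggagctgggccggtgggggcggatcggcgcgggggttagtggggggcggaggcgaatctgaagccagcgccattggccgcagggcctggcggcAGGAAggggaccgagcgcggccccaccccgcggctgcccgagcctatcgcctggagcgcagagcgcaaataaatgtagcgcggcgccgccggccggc
The *Etv2* window held 5 ETS cores and neither of the other words. *Tal1* held 2 ETS cores and 1 GATA word, *Lyl1* 4 ETS cores and 1 E-box, and *Hhex* 2 ETS cores. The window of the second *Tal1* start, not printed, held 0 matches. The windows of the 3 *Erg* starts, also not printed, held 0, 1 and 1 ETS cores. The last of them also held 2 E-boxes and 1 GATA word. Among all 32851 promoter windows of this length, 71.4% held an ETS core, 66.2% an E-box and 16.6% a GATA word, so the first 2 words are common. A match is a description of the letters and not of binding.

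The loci are spread over 7 chromosomes, and GENCODE M21 lists all as protein-coding genes (coordinates on GRCm38, to which the reads were aligned). *Fli1* (chr9:32422204-32542861, minus strand) and *Ets1* (chr9:32636221-32757820, plus strand) are the only members on 1 chromosome. *Lmo2* (chr2:103957986-103981878, plus strand) overlaps a gene on the opposite strand without sharing exonic bases. *Lyl1* (chr8:84701457-84704715, plus strand) lies within *Nfix*, which runs on the opposite strand, and the pair shares 4 exonic bases. *Etv2* (chr7:30633616-30635852, minus strand) has 1.05 kilobases of exon, and *Tal1* covers chr4:115056426-115071755 on the plus strand. *Erg* spans chr16:95359169-95586593 on the minus strand and *Hhex* chr19:37434810-37440731 on the plus strand. The strand setting of the counting was not stated, so reads of *Lyl1* and *Nfix* in the shared bases could not be told apart.

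All 8 factors differed widely between plates of the same stage. Plates are pools of sorted cells, in which fewer cells of a type and less RNA per cell cannot be told apart. *Etv2*, the early ETS factor, had a median plate level of 16.7 CPM at E7.5, from 6.23 CPM on lane plate 5 to 149.6 CPM on lane plate 2. At E8.5 its median was 14.8 CPM, from 1.38 CPM on plate 1 to 169.6 CPM on plate 3. *Tal1*, the helix-loop-helix factor, ran from 0.910 CPM on the chimera plate to 138.98 CPM on lane plate 1 at E7.5, with a median of 6.29 CPM. At E8.5 it ran from 0.297 CPM on plate 8 to 267.2 CPM on plate 2, with a median of 119.8 CPM. The plate highest for *Etv2* was not the one highest for *Tal1* at either stage, and on E8.5 plate 1, where 15.8% of reads were globin, *Tal1* stood at 189.2 CPM and *Etv2* at its lowest.

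*Lmo2*, the bridging protein, had E7.5 plate levels of 3.63 to 113.7 CPM (median 5.85) and E8.5 levels of 4.47 to 255.6 CPM (median 131.99). *Lyl1* was close to absent on the plates of named embryos, at most 0.619 CPM, and reached 104.4 CPM on E7.5 lane plate 1 and 195.5 CPM on E8.5 plate 5. *Erg* stayed at or under 0.468 CPM on 8 of 11 E7.5 plates and reached 58.7 CPM on E8.5 plate 6. *Fli1* ranged from 3.11 to 320.8 CPM at E7.5 and from 3.16 to 271.2 CPM at E8.5. *Ets1* ranged from 12.02 to 145.1 CPM at E7.5 and from 15.3 to 258.8 CPM at E8.5. *Hhex* ranged from 7.31 to 114.5 CPM at E7.5 and from 5.63 to 138.6 CPM at E8.5. E8.5 plates 7 and 8 lay under the E8.5 median for all 8 members, and the plates of the stages overlapped for every member.

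**Figure D1:**
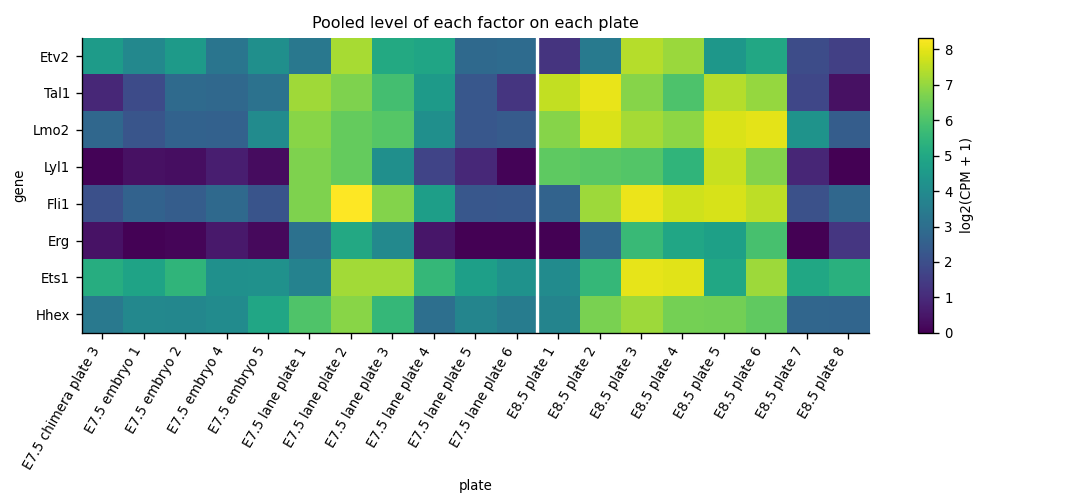
Pooled level of the 8 factors (rows) on the 19 plates (columns, E7.5 left of the white line and E8.5 right of it), as log2(CPM + 1) in colour. E7.5 lane plate 2 and E8.5 plates 3 and 4 are the brightest for *Etv2*, whereas E8.5 plates 1 and 2 are bright for *Tal1* and dark for *Etv2*.

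When cells were pooled by stage, 4 of 8 members (*Tal1*, *Lmo2*, *Lyl1* and *Erg*) were more than 2-fold higher at E8.5 and 0 were more than 2-fold lower. Of the 9887 genes that reached 10 CPM at one stage or both, 7.02% were as much higher and 8.21% as much lower, and the median log2 ratio was 1.12 over the members and 0.0785 over all of these genes. *Tal1* stood at 119.2 CPM against 41.7 CPM at E7.5, a log2 ratio of 1.49 with 1 CPM added to both sides, and the SD between plates of a stage was 2.49 on the same scale. *Lmo2* had the largest ratio, 1.69, with an SD of 1.88. *Etv2* had the smallest, 0.44, from 28.2 to 38.5 CPM, with an SD of 1.82. For every member the difference was smaller than the SD between plates, and for 0 of 8 did all E8.5 plates lie above all those of E7.5 (0.394% of genes) or below them (1.44%). With plates weighted equally, all members but *Etv2*, 7 of 8, were more than 2-fold higher, against 7.75% of 9948 genes higher and 8.3% lower. Stage, sort gates and possibly assay cannot be told apart in these pools.

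To order cells by the markers of the lineage, each was placed in the first of these groups that it met: globin-high (at least 10000 CPM, or 1% of reads, on 8 globin genes), then at least 10 CPM of *Itga2b*, of *Cdh5* (VE-cadherin) or of *Kdr*, and otherwise no marker. These are ranges of expression and not cell types. Globin-high, *Itga2b*, *Cdh5*, *Kdr* and unmarked cells made up 5.75%, 12.1%, 3.56%, 30.8% and 47.8% of kept cells at the earlier stage, and 24.1%, 31.3%, 8.08%, 10.4% and 26.1% at the later one. Within a factor of 2 of a cut lay 71 cells for *Kdr*, 35 for *Cdh5*, 54 for *Itga2b* and 34 for the globins. Cells of the *Kdr* group at E7.5 mostly carried markers of nascent mesoderm (47.6%) or mesenchyme (19.7%), and those of the *Cdh5* group carried endothelial markers (29 of 34 cells, and 52 of 56 at E8.5). *Cdh5* is itself on the endothelial list at the same cut of 10 CPM, so this match was partly fixed by the grouping. The *Itga2b* group was mixed. At E8.5, 67.3% of its cells had endothelial, 13.8% myeloid, 8.29% megakaryocyte and 5.53% erythroid markers.

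The pooled level of *Etv2* in the *Kdr* group was 54.4 CPM at E7.5 (53.6 to 55.3), against 4.59 CPM without a marker, and then 33.1 CPM in the *Cdh5* group, 40.1 CPM in the *Itga2b* group and 3.24 CPM in globin-high cells. At E8.5 the corresponding levels were 236.3 CPM in the *Kdr* group (231.7 to 240.9), 2.87 CPM without a marker, 117.9, 29.99 and 5.86 CPM. Plates differed widely: in the *Kdr* group, *Etv2* ran from 17.7 CPM on lane plate 6 to 426.5 CPM on lane plate 2 at E7.5 (median 38.5), and from 0 CPM on plate 7 to 504.2 CPM on plate 3 at E8.5 (median 10.98). The E8.5 pool rests on plates 3 and 4, with 18 and 32 cells of this group. Without plate 3 it was 84.2 CPM in the *Kdr* group and 181.4 CPM in the *Cdh5* group, which turns their order, and the plate medians of the *Kdr*, *Cdh5* and *Itga2b* groups at E8.5 were 10.98, 70.01 and 29.9 CPM. At E7.5, on the 9 plates that remain without lane plate 2, the *Kdr* group was at 39.6 CPM, and the plate medians of the same groups were 38.5, 36.2 and 27.4 CPM.

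A small set of cells carried most of the *Etv2* reads. Of 1649 cells, 7.40% had at least 100 CPM, and they held 73.5% of its 43032 reads. At E7.5, 42 of these cells were in the *Kdr* group (14.3% of the group), 5 in the *Cdh5* group (14.7%), 14 in the *Itga2b* group (12.1%) and 1 in the group without a marker. At E8.5 the counts were 20 (27.8%), 15 (26.8%), 21 (9.68%) and 1, with 3 globin-high cells (1.80%), so the shares of the *Kdr* and *Cdh5* groups were close at both stages. E7.5 lane plate 2 held 26 of them, and E8.5 plates 3 and 4 held 23 each. The median *Kdr*-group cell had 9.12 CPM at E7.5 and 4.91 CPM at E8.5, far under the pooled levels, and the highest cells had 1863 and 1791 CPM. In the *Kdr* group at E7.5, the pool of cells with at least 100 CPM of *Etv2* held *Tal1* at 51.7 CPM and *Lmo2* at 47.9 CPM, against 4.62 and 8.89 CPM in the rest of the group. At E8.5 the values were 130.3 and 198.1 CPM against 30.2 and 40.4 CPM. *Fli1*, *Erg* and *Hhex* were also higher in the pool with *Etv2* at both stages. *Lyl1* was lower in that pool at E7.5 (0.0294 against 1.61 CPM) and *Ets1* at E8.5 (79.3 against 104.7 CPM), each being higher at the other stage. All 20 E8.5 cells with at least 100 CPM of *Etv2* were on plates 3 and 4, whereas the rest of the group came from 6 plates. Plates 3 and 4 went different ways: *Tal1* was lower with *Etv2* on plate 3 (124.7 against 185.4 CPM) and higher on plate 4 (148.1 against 11.9 CPM), and *Lmo2* was higher on both (221.2 against 152.5 and 124.1 against 35.4 CPM). At E7.5, most *Kdr*-group cells of lane plate 2 had at least 100 CPM of *Etv2*, with *Tal1* at 128.4 against 21.4 CPM in the rest. In embryo 1, *Tal1* was lower with *Etv2* (2.16 against 6.33 CPM). On the 8 plates with at least 3 cells of each kind, *Tal1* and *Lmo2* were each higher with *Etv2* on 6 and lower on 2. *Erg* and *Hhex* were higher on 5 and lower on 3, and *Fli1* and *Ets1* were higher on 4 and lower on 4. *Lyl1* was higher on 2 and lower on 3. *Kdr* itself was higher with *Etv2* on 8 and lower on 0. Its pooled level was 855.4 against 381.5 CPM at E7.5 and 1305 against 420.6 CPM at E8.5. Differences that go with *Etv2* and with the level of *Kdr* therefore cannot be told apart here. Shares over all genes were not counted for this comparison.

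The pooled level of *Tal1* was higher in each later group, from no marker to globin-high. These pools hold different plates. On plates with at least 5 cells of both groups, *Tal1* was higher on 9 of 11 from no marker to *Kdr*. At the next steps, to the *Cdh5*, *Itga2b* and globin-high groups, it was higher on 3 of 5, 3 of 5 and 2 of 3 plates. At E7.5 it stood at 0.514 CPM without a marker, 10.2 in the *Kdr* group, 71.6 in the *Cdh5* group, 128.998 in the *Itga2b* group and 193.02 CPM in globin-high cells. At E8.5 the values were 0.635, 67.5, 83.045, 141.8 and 249.2 CPM. After each cell was thinned to 100000 reads, a *Tal1* read was found in 100% of 55 globin-high cells at E7.5 and in 99.4% of those at E8.5, and in 2.41% of cells without a marker at E7.5. E7.5 globin-high cells came almost wholly from lane plate 1 (53 of 55).

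*Lmo2* was above 100 CPM from the *Cdh5* group on at both stages. Its E7.5 values along the same groups were 3.99, 13.5, 144.8, 103.7 and 140.1 CPM, and its E8.5 values 5.61, 99.1, 138.4, 221.6 and 179.5 CPM. *Lyl1*, the relative of *Tal1*, was low up to the *Kdr* group. It was at 0.0616 CPM without a marker and 1.42 CPM in the *Kdr* group at E7.5, then 66.2, 89.8 and 82.6 CPM, and at E8.5 at 0.0203, 7.67, 70.2, 132.02 and 85.9 CPM.

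*Fli1* and *Erg*, the ETS factors of endothelium, had their highest pooled levels in the *Itga2b* group and lower ones in globin-high cells. On the 5 plates with at least 5 cells of both groups, their log2 ratios from *Cdh5* to *Itga2b* were 0.31 and 0.62. Each was higher on 4 of these plates and lower on 1. *Fli1* at E7.5 went through 1.27, 8.68, 230.6, 288.2 and 42.2 CPM, and at E8.5 through 2.66, 71.8, 195.8, 257.8 and 61.3 CPM. *Erg* at E7.5 went through 0.00616, 0.175, 23.1, 32.4 and 0.107 CPM, and at E8.5 through 0.737, 4.77, 43.3, 51.3 and 2.60 CPM. *Ets1* was already present without a marker, at 15.4 CPM at E7.5, and went through 58.5, 170.6, 161.9 and 3.65 CPM in the later groups. At E8.5 its levels were 24.3, 95.2, 285.8, 164.8 and 28.3 CPM. *Hhex* was at 15.1 CPM without a marker and 8.51 CPM in the *Kdr* group at E7.5, then 124.8, 110.6 and 28.3 CPM. At E8.5 it stood at 5.06, 103.5, 118.2, 92.2 and 48.6 CPM. The E8.5 *Kdr*-group levels rest on plate 3, which held 80.1% of the *Hhex* reads of that group. Without it, *Hhex* was at 32.4, *Tal1* at 27.6, *Lmo2* at 38.3, *Lyl1* at 0.370, *Fli1* at 38.2 and *Erg* at 2.70 CPM, while *Ets1* was at 95.4 CPM. Per kilobase of exon, the order in the *Itga2b* group at E8.5 was *Lmo2* (102.3 CPM per kilobase), *Fli1* (73.96), *Lyl1* (73.3), *Tal1* (32.4), *Etv2* (28.6), *Ets1* (19.4), *Hhex* (18.2) and *Erg* (14.8). The plate values of each pair of neighbours in this order overlapped.

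**Figure D2:**
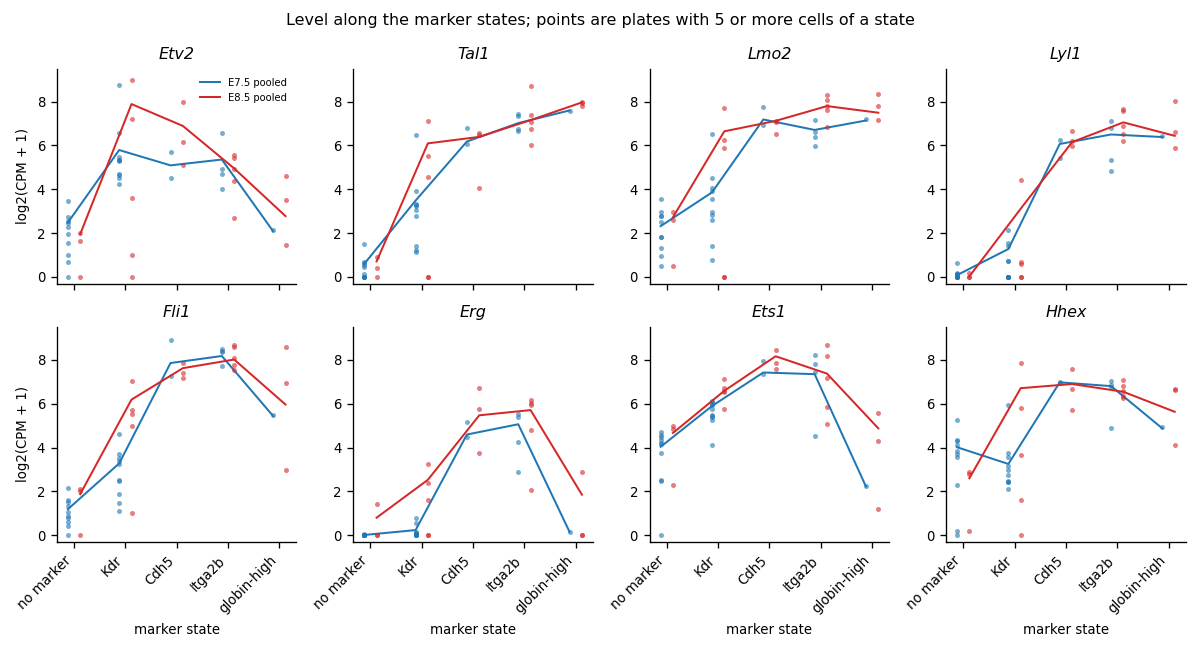
Level of each factor, as log2(CPM + 1), in cells grouped by marker (horizontal axis). Lines join the pooled level of a stage (E7.5 blue, E8.5 red), and points are plates with at least 5 cells of a group. The pooled *Etv2* line is highest in the *Kdr* group at both stages but its E8.5 points there run from 0 to 504.2 CPM. *Lyl1* and *Erg* are near 0 before the *Cdh5* group at E7.5, and the pooled *Tal1* line is highest in globin-high cells.

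Neighbouring groups were then compared. A gene was called where levels pooled over all cells of each group differed at least 2-fold and every plate with at least 5 cells of both groups, at least 3 plates, went the same way. Because the pools also hold cells of other plates, levels pooled over the compared plates alone, added after these values were seen, are given for the members. From no marker to *Kdr*, 0 of 6 members with at least 10 CPM were called on 11 plates, where 0.381% of 9699 genes were called higher and 1.14% lower. *Etv2* was higher in the *Kdr* group on 9 of 11 plates, all of them E7.5. On these 11 plates it went from 4.09 to 38.3 CPM, a log2 ratio of 2.95, against 3.97 over all cells. On E8.5 plates 7 and 8, with 5 and 11 *Kdr*-group cells, it was lower. On the 9 E7.5 plates alone, a choice made after these values were seen, *Etv2* and *Tal1* were called higher, against 1.36% of genes called higher and 1.53% lower. Pooled over those 9 plates, *Etv2* had a log2 ratio of 2.83 and *Tal1* of 2.40, and *Tal1*, at 7.08 CPM, was then under the minimum of 10 CPM. On the 4 named embryos alone, chosen likewise, *Etv2* and *Ets1* were called higher and *Hhex* lower, against 3.34% and 5.85% of genes. *Ets1* was higher on 10 of 11 plates, all but lane plate 6, without which it was called. *Hhex* was lower on 9 of 11 plates, with 12.9 CPM without a marker and 6.25 CPM in the *Kdr* group over these plates (log2 ratio -0.94). Over all cells, which adds cells of E7.5 lane plate 2, E8.5 plates 3 and 4 and other plates, the log2 ratio was 0.74.

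From *Kdr* to *Cdh5*, 4 of 8 members were called higher and 0 lower on 5 plates, against 4.63% of 9762 genes higher and 4.62% lower. With 1 read in place of 10 CPM as the marker cut, *Fli1* alone was called. Pooled over the 5 plates, *Erg* went from 1.42 to 35.5 CPM (log2 ratio 3.91), *Lyl1* from 4.69 to 63.9 CPM (3.51), *Fli1* from 29.8 to 244.96 CPM (2.999) and *Ets1* from 71.6 to 255.2 CPM (1.82), each higher on 5 of 5 plates. *Hhex* and *Lmo2* were higher on 4 of 5 plates, with E8.5 plate 3 the exception for both. *Etv2* did not move one way: it was lower in the *Cdh5* group on E7.5 lane plates 2 and 3 and E8.5 plate 3, with 426.5 against 50.9 CPM on lane plate 2 and 504.2 against 70.01 CPM on plate 3, and higher on E8.5 plates 4 and 6.

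From *Cdh5* to *Itga2b*, 0 of 8 members were called on 5 plates, where 1.68% of genes were called higher and 0.273% lower. From *Itga2b* to globin-high, 1 member, *Ets1*, was called lower on 3 plates, where 9.86% of genes were called lower and 2.24% higher. *Ets1* fell from 21.7 to 3.81 CPM on E7.5 lane plate 1, from 56.2 to 46.5 CPM on E8.5 plate 2 and from 32.7 to 1.26 CPM on E8.5 plate 5. Pooled over the 3 plates its log2 ratio was -0.38, so it was not called on those pools. *Fli1* and *Erg* had log2 ratios of -1.31 and -2.54 over the 3 plates, but *Fli1* was higher on E8.5 plate 5 and *Erg* on E8.5 plate 2. *Tal1* went from 101.8 to 191.6 CPM on lane plate 1 and from 420.7 to 255.8 CPM on E8.5 plate 2.

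Within the globin-high cells, levels also differed with the amount of globin. In the 23 E7.5 cells with at least 100000 CPM of globin, *Tal1* was at 208.9 CPM and *Lyl1* at 120.3 CPM, while *Fli1* was at 9.85, *Hhex* at 3.87 and *Etv2* at 1.33 CPM. In the 32 cells between 10000 and 100000 CPM of globin, *Fli1* was at 60.1, *Hhex* at 41.8 and *Etv2* at 4.29 CPM. *Tal1* was at 184.2 and *Lyl1* at 61.7 CPM there. *Lmo2* was at 161.7 CPM there and at 101.1 CPM in the 23 cells. At E8.5, from 84 cells of the lower range to 83 of the upper, *Tal1* went the other way, from 263.9 to 239.2 CPM. *Lmo2* went from 280.4 to 111.3, *Lyl1* from 68.2 to 97.9, *Fli1* from 141.7 to 6.82, *Hhex* from 102.98 to 11.7 and *Etv2* from 13.7 to 0.568 CPM. Globin reads enter the total, yet leaving them out of the library size changed no call along the groups.

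The only test with animals as replicates compared cells within the 4 named E7.5 embryos. Reads were summed per embryo over cells with at least 10 CPM of *Kdr* (40, 43, 20 and 28 cells in embryos 1, 2, 4 and 5) and over cells without a *Kdr* read (47, 49, 66 and 56 cells). It asks which genes go with *Kdr*, and it is no test of a condition. *Etv2* was the only member past the threshold of 1% false discovery rate and a 2-fold difference. Its level was 24.6 CPM in *Kdr* cells against 5.03 CPM in embryo 1, 42.7 against 4.96 in embryo 2, 25.5 against 3.16 in embryo 4 and 39.1 against 5.71 in embryo 5. The log2 fold change was 2.79 with an SE of 0.22 and an adjusted p of 0.00695 (edgeR quasi-likelihood test with embryo as a block, two-sided, Benjamini-Hochberg), and the groups did not overlap. Among the 16776 genes tested, 0.215% were called higher and 0.131% lower.

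*Fli1* was at 10.4, 8.48, 23.8 and 9.40 CPM in *Kdr* cells of the embryos, against 0.871, 1.10, 0.534 and 0.357 CPM in cells without *Kdr*. The values did not overlap, and the log2 fold change of 4.14 (SE 0.54) had an adjusted p of 0.0252 by edgeR. *Ets1* was at 44.2, 64.2, 55.5 and 41.6 CPM against 13.9, 26.2, 4.74 and 6.11 CPM, with a log2 fold change of 2.30 (SE 0.40) and an adjusted p of 0.0495 by edgeR. *Tal1* was at 5.90, 11.6, 24.5 and 13.97 CPM against 0.112, 1.90, 0 and 0 CPM, with an adjusted p of 0.111 by edgeR. *Lmo2* was at 5.08, 10.003, 18.9 and 21.98 CPM against 2.56, 0.992, 0.462 and 2.00 CPM, with a log2 fold change of 3.28 (SE 0.75) and an adjusted p of 0.0924 by edgeR. All members but *Hhex* were higher in *Kdr* cells in 4 of 4 embryos, and *Etv2* alone passed 1%. The shares of all genes that went 1 way in 4 of 4 embryos, or did not overlap, were not counted. Direction and overlap therefore do not set the members apart from other genes.

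*Hhex* went the other way, at 7.80, 7.48, 12.6 and 12.3 CPM in *Kdr* cells against 19.6, 19.7, 13.6 and 39.2 CPM, lower in 4 of 4 embryos. Its log2 fold change was -1.13 (SE 0.30) with an adjusted p of 0.123 by edgeR. *Lyl1* had 90 reads in the *Kdr* cells and 0 in the cells without *Kdr*. Set against a floor of 3 reads over the pool, this is a ratio of 44.1. By embryo, *Lyl1* was at 0.533 to 2.52 CPM in *Kdr* cells, with a read in 2.33% to 15% of them after thinning. *Erg*, too low to be tested, had 45 reads against 0, a ratio of 22.1 on the same floor. Its level in *Kdr* cells was 1.91 CPM in embryo 4 and at most 0.463 CPM in the others. Amplified reads are not independent, so these ratios are not lower bounds. Of the 7 members tested, 6 were higher and 1 was lower at an unadjusted p under 0.05 by edgeR. The share of all genes at that level was not counted, so this does not set the members apart. DESeq2 called 6 higher and 1 (*Hhex*) lower, against 0.779% and 1.47% of all 55486 genes. Of the members tested by both tools, only *Etv2* was called by both. Leaving out any 1 embryo left 0 members past 1% by edgeR, with adjusted p for *Etv2* between 0.0307 and 0.0625. Each time, 6 members were higher and 1 was lower at an unadjusted p under 0.05 by edgeR, again without a count over all genes.

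**Figure D3:**
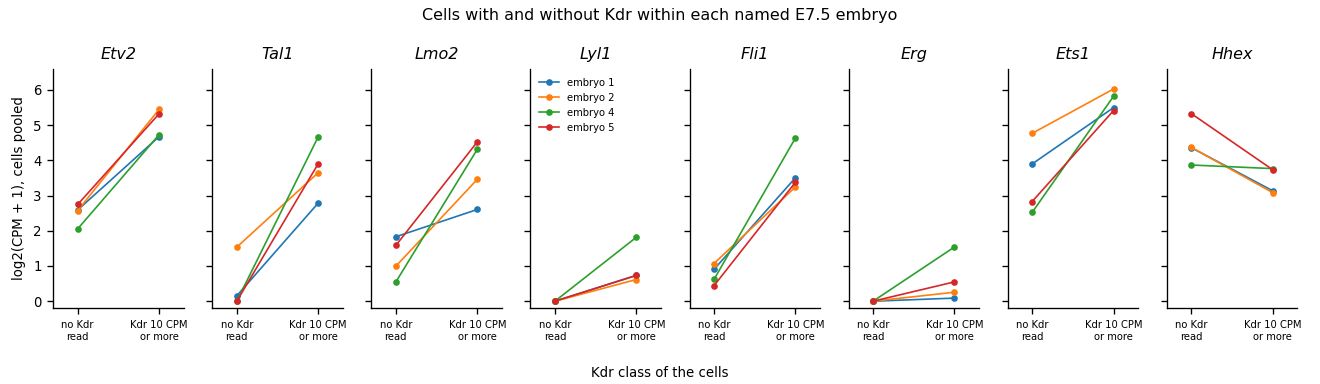
Level of each factor, as log2(CPM + 1), in pooled cells without a *Kdr* read (left in each panel) and with at least 10 CPM of *Kdr* (right). Each line is 1 of the 4 named E7.5 embryos. All lines rise for *Etv2* and all fall for *Hhex*, and *Lyl1* and *Erg* start from 0 in every embryo.

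Members were next counted per cell after thinning to 100000 reads. The median cell without a marker had a read of 1 member at E7.5 and of 0 at E8.5, and *Kdr*-group cells had 2 at both stages. Cells of the *Cdh5* group had 6, cells of the *Itga2b* group 6 (E7.5) and 7 (E8.5). Globin-high cells had 3 and 4 in the same order. All 8 members together were seen in 5 of 34 *Cdh5*-group and in 9.48% of *Itga2b*-group cells at E7.5, in 18.9% of *Itga2b*-group cells at E8.5, and in 0 E7.5 cells without a marker, a count that is compatible with a share up to 0.656%.

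In the *Kdr* group, cells with an *Etv2* read held other members more often. At E7.5, *Tal1* was found in 16.7% of 150 *Kdr*-group cells with *Etv2* and in 4.86% of those without it, and *Lmo2* in 27.3% and 8.33%. At E8.5, *Tal1* was found in 44.4% of 36 cells with and 11.1% of 36 without *Etv2*, *Lmo2* in 52.8% and 11.1%, *Fli1* in 55.6% and 22.2%, and *Hhex* in 58.3% and 16.7%. *Lyl1* at E7.5 showed no such excess, at 3.33% and 4.86%. In the E8.5 *Itga2b* group the shares were closer, with *Fli1* in 95.9% of cells with and 94.96% without *Etv2*. In the E7.5 *Itga2b* group, *Hhex* was found in 94.3% with and 77.8% without *Etv2*, whereas *Erg* was found in 49.1% with and 66.7% without it. Cells that share a library are not independent, so these shares are given without a test. Plate differs between the E8.5 sets: plates 7 and 8, where no *Kdr*-group cell had *Tal1* or *Lmo2*, gave 1 of the cells with *Etv2* and 15 of those without. On plates 3, 4 and 6, *Tal1* was found in 45.7% of 35 cells with and 15.0% of 20 without *Etv2*, and *Lmo2* in 54.3% and 15.0%. Over all cells of a plate, *Tal1*, *Lmo2* and *Hhex* were each more often found in *Etv2* cells on 16 of 19 plates. *Fli1* and *Ets1* were so on 14, *Lyl1* on 10 and *Erg* on 9. *Lmo2*, *Lyl1* and *Fli1* were each more often found in *Tal1* cells on all 10 plates where this could be compared. *Ets1* and *Hhex* were so on 9, *Etv2* on 8 and *Erg* on 7. Shares over all genes were not counted.

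**Figure D4:**
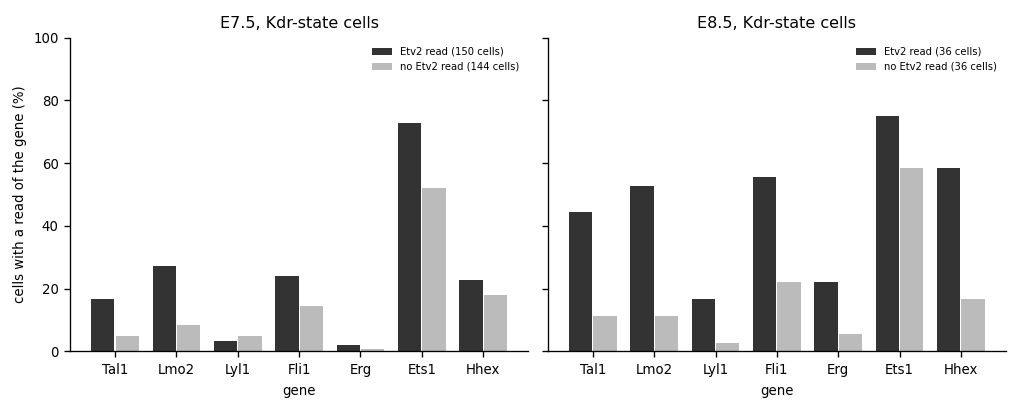
Share of *Kdr*-group cells with a read of each other factor (vertical axis, percent, after thinning to 100000 reads), in cells with an *Etv2* read (dark) and without one (light), at E7.5 (left) and E8.5 (right). At E8.5 the dark bar is higher for all 7 factors, and at E7.5 for all but *Lyl1*.

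Cells were also classed by lists of marker genes that hold none of the 8 factors. A cell was assigned to the class of which it expressed the highest proportion of markers, and needed 3 or more. *Etv2* was detected in 47.8% of E7.5 cells with endothelial markers (60.7 CPM), 47.5% of cells with nascent mesoderm markers (30.4 CPM) and 46.1% of cells with mesenchyme markers (34.3 CPM). In 80 cells with markers of extraembryonic ectoderm, a tissue outside blood and endothelium, it was detected in 17.5% (3.46 CPM), at a median of 601362 reads per cell against 814611 in the endothelial class. It was detected in 24.5% of cells with epiblast markers, 11.4% of those with definitive endoderm markers and 0 of 14 with yolk sac endoderm markers (which allows up to 21.4%). Cells without a marker, in which 19.3% held *Etv2* at E7.5, include most cells of these classes.

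*Erg* was found mainly in endothelial and myeloid classes. It was found in 61.7% of E7.5 and 77.99% of E8.5 cells with endothelial markers and in 68.8% of 32 E8.5 cells with myeloid markers, but in 6.45% and 6.94% of cells with erythroid markers. *Fli1* was found in 96.5% of E7.5 endothelial cells and 100% of 18 E8.5 megakaryocyte cells, at 345.5 CPM in the latter. *Lyl1* was highest in megakaryocyte (237.8 CPM) and myeloid cells (211.1 CPM) of E8.5, and *Tal1* in erythroid cells (256.8 CPM at E8.5, 201.8 CPM at E7.5). *Hhex* was the only member above 10 CPM in an endoderm class at E7.5: 101.5 CPM in 35 E7.5 cells with definitive endoderm markers, where *Tal1* was at 0.0390 CPM, and 85.9 CPM in 14 with yolk sac endoderm markers. *Ets1* was found in 89.5% of E7.5 mesenchyme cells (92.9 CPM), where *Erg* was found in 0 of 76 cells (a share of up to 3.95% is possible). For the megakaryocyte and myeloid classes, and for the erythroid class at E7.5, only 1 plate of a stage held at least 5 cells. Their values carry no spread.

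**Figure D5:**
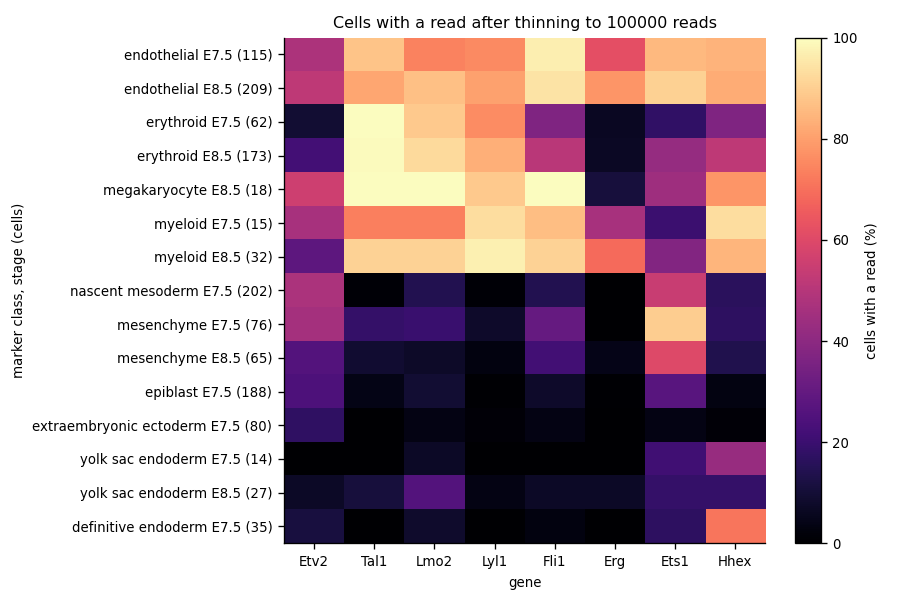
Share of cells with a read of each factor after thinning to 100000 reads (colour, percent), by marker class and stage (rows, with the number of cells) and gene (columns). Endothelial rows are bright for most factors (*Etv2* at 47.8% and 52.2%), erythroid rows for *Tal1*, *Lmo2* and *Lyl1*, and the definitive endoderm row for *Hhex* alone.

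Genes that work with these factors were described by list, with levels pooled over all cells of a group. Of 10 endothelial genes, 10 were called higher from *Kdr* to *Cdh5* (4.63% of genes), among them *Tek*, an angiopoietin receptor, from 12.8 to 294.5 CPM, and *Cldn5*, a tight-junction protein, from 4.35 to 817.7 CPM. Some of these genes also define endothelium, as *Cdh5* does. Of 8 blood genes, 3 were called higher from *Itga2b* to globin-high, including *Klf1*, the erythroid activator, from 6.80 to 427.8 CPM. Among 8 partners of the TAL1 complex, *Gata1* rose at that step from 60.99 to 342.2 CPM and *Gata2* fell from 52.1 to 8.65 CPM, while *Ldb1*, *Tcf3* and *Tcf12* were not called at any of the 4 steps.

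Of 8 upstream signals and mesoderm factors, *Bmp4* and *Hand1* were among the 4 of 6 tested that were called higher from no marker to *Kdr*, against 0.381% of genes. From *Kdr* to *Cdh5*, 3 of 7 tested were called lower (4.62% of genes), including *Hand1* from 134.1 to 25.2 CPM, and 1 higher (4.63%), the VEGF receptor *Flt1* from 29.1 to 422.2 CPM. Within the named embryos, *Bmp4* (log2 fold change 1.77, SE 0.14, adjusted p 0.00695 by edgeR) and *Tbx3* (2.69, SE 0.11, adjusted p 0.00121 by edgeR) were higher with *Kdr*. Of 8 other ETS factors, 0 were called in that test, with 1 of them at an unadjusted p under 0.05, a level not counted over all genes. From *Kdr* to *Cdh5*, *Ets2* and *Elk3* rose (26.5 to 117.1 and 8.98 to 116.5 CPM) and *Etv5* fell from 77.5 to 28.1 CPM.

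The gene whose log2(CPM + 1) was most like that of each member was found across the 1649 cells among 16091 genes. These correlations share plates and depth and are given as a description. *Etv2* was most like *Kdr* (r = 0.43, or 0.24 within plates), followed by *Mmp9*, a gelatinase (0.33), and *Fev*, an ETS factor (0.33). Within plates the order turned, with *Mmp9* at 0.26 and *Fev* at 0.25. *Tal1* was most like *Gypc*, a red-cell membrane glycophorin (0.77), and *Lmo2* (0.76, or 0.48 within plates). *Lyl1* was most like *Itga2b* (0.77), and *Fli1* and *Erg* were both most like *Esam*, an endothelial adhesion molecule (0.77 each). *Ets1* was most like the mesenchymal filament gene *Vim* (0.55), and *Hhex* most like *Fli1* (0.65). Among the 28 pairs of members, *Tal1* with *Lmo2* was highest (0.76) and *Etv2* with *Lyl1* lowest (0.064, or -0.026 within plates).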

How the data were processed

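Gene by cell read counts were deposited by the authors, who sorted cells into methylase buffer, captured poly-A RNA (G&T-seq with Smart-seq2, no molecular identifiers), aligned reads to GRCm38 with HISAT2 2.1.0 and counted them with featureCounts on Ensembl annotation. The paper counts 768 cells profiled for RNA, DNA methylation and accessibility together, some without methylase, and 1056 cells for RNA alone. The wells here number 768 at E8.5 and 1056 at E7.5. The methylase step may therefore not hold for all cells, and the assay may differ by stage, which was not tested. Strand and multiple-mapping settings are not given in the sources used here. Amplification can inflate single values, and dropout leaves zeros. Of 55487 identifiers, 55141 had a symbol. The members and gene lists were chosen with earlier results of these data known. Named genes were the 8 members, the genes of the lists and, for each member, the 3 genes with the highest Pearson r among genes read in at least 5% of cells.

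Cells with at least 100000 reads were kept (100941 to 6162793 reads, 65 to 94 cells per plate). No doublet caller was run, and an alternative dropped the deepest 2% of cells of each plate. CPM was computed from totals, detection after thinning each cell to 100000 reads, and log2 ratios with 1 CPM added, for genes with at least 10 CPM in either pool. Cells are not replicates, so stages and marker groups were compared without a test. Summed counts of the 4 named embryos, each 1 plate, were tested with edgeR 4.0.16 (quasi-likelihood, embryo as block, *Kdr* left out, 1% false discovery rate and 2-fold), with DESeq2 1.42.0 as an alternative, in R 4.3.3. Embryo and plate cannot be told apart there. In simulated counts of 16777 genes for this comparison, 152 of 200 genes changed by 2 on the log2 scale were recovered. There were 0 false calls among the unchanged genes. Genes of the lowest expression were not drawn as changed, and the spread followed the trend with expression. Recovery of low or uneven members was therefore not shown. Python 3.11.15, numpy 2.4.6, pandas 2.3.3 and scipy 1.17.1 were used. No column lacked a sample.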

Additional observations from a re-analysis of the deposited data

Results flagged for a closer look

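Among 32 sets of 4 named-embryo values, 7 had 1 value far from the others, where chance gives about 1 in 20. Embryo 5 had the highest pooled *Lmo2* (15.3 CPM against 3.63 to 5.12) and *Hhex* (29.4 CPM against 13.6 to 15.2), and the highest share of cells with *Hhex* (22.7% against 16.3% to 17.02%). The share of cells with *Lmo2* was highest in embryo 1, at 14.1% against 7.95% to 8.79%. In *Kdr* cells, embryo 4 stood apart for *Lyl1* (2.52 CPM against 0.533 to 0.663) and *Fli1* (23.8 CPM against 8.48 to 10.4). In cells without *Kdr*, embryo 2 had *Tal1* at 1.90 CPM against 0 to 0.112 CPM.

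On the plates that could be compared, *Etv2* moved in opposite directions at the stages in 2 of 24 pairs of step and gene. The difference was not tested. From no marker to *Kdr* its log2 ratio was 1.88 to 5.59 on E7.5 plates and under 0 on E8.5 plates 7 and 8, the nearer at -0.62, a difference of medians of -4.04. Plates 7 and 8 held 5 and 11 *Kdr*-group cells. Plates 3 and 4, with 18 and 32, held 0 cells without a marker and did not enter. Over all E8.5 cells, *Etv2* was higher in the *Kdr* group, at 236.3 CPM (84.2 CPM without plate 3) against 2.87 CPM without a marker. Stage and plate therefore cannot be told apart at this step. From *Cdh5* to *Itga2b* the log2 ratio of *Etv2* was 0.43 to 0.88 on E7.5 plates and -2.43 to -0.17 on E8.5 plates, a difference of -1.38. The 72 wells with under 4000 reads, not used above, held 33 reads of the members in 24 wells.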

How the results depend on the processing

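No paired analysis was possible because the titles give no replicate number shared between the groups compared, and embryo was already a block in the test within embryos. Stage ratios of single members moved by less than the plate spread under every alternative run. That spread, an SD of 1.32 to 2.67 on the log2 scale, was larger than the stage ratio of every member. Moving by less than it therefore does not show that the ratios are stable. Of the step ratios, 4 moved more than their own limit and 3 lost their call. With plates weighted equally, 7 members rather than 4 were past 2-fold higher at E8.5. From no marker to *Kdr*, 1 member (*Ets1*) rather than 0 was called higher with a marker cut of 1 read, with at least 300000 reads and after dropping the deepest 2% of cells, and leaving out 1 plate gave 0 to 1. Chosen after seeing the data, pools of the compared plates alone gave 0 members rather than 1 lower in globin-high cells and the same counts at the other steps, and E7.5 plates alone gave 2 and the named embryos alone 2 higher and 1 lower. With the cut of 1 read, 1 member rather than 4 was called higher from *Kdr* to *Cdh5*, and with a globin cut of 1000 CPM 2 rather than 1 were lower in globin-high cells. That step had 2 plates at 300000 reads or without any 1 of its plates, and was not run there. Within embryos, edgeR called 0.0649% of all 55486 genes higher and 0.0396% lower, with 1 member. DESeq2 called 0.779% and 1.47%, with 6 members higher and 1 lower. Without a filter on low counts the shares were 0.160% and 0.164%, without the embryo block 0.0126% were lower, and at 5% without a fold limit they were 0.411% and 0.445%, with 3 members. Leaving out 1 embryo gave 0 to 0.0108% higher, 0 to 0.0036% lower and 0 to 0 members. The causes were not tested. Without thinning, at 10 CPM or thinned to 300000 reads, 25 of 48 detection shares moved.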
